A study of Mus musculus with 16 samples.

Results

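Transcripts of 10 genes of canonical Wnt signaling were followed in cortical bone of the mouse femur. They encode the receptors Lrp4, Lrp5 and Lrp6, the signal transducer β-catenin (Ctnnb1), the transcription factors Tcf7 and Lef1, and Axin2, Nkd1, Nkd2 and Notum, which are targets and inhibitors of the pathway. The genes were chosen by name, and each matched 1 of the 36829 features listed for every mouse. RNAseq was performed on 16 female C57Bl/6 mice aged 11 weeks, with 1 library per mouse. Of these, 8 mice had undergone hindlimb unloading (HLU) for 7 days, in which the animal is suspended so that its hindlimbs carry no load. The other 8, the controls (Control), bore weight normally. No mutant allele or transgene is named for either group. The HLU mice were also anesthetised with isoflurane and attached by the tail to a harness, steps not described for the controls. The ends of the femur were cut off and the marrow was flushed out, which leaves the cortical shaft with its osteocytes and with any cells that stayed on its surfaces or in its vessels.

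In canonical Wnt signaling, a Wnt ligand joins a Frizzled receptor to the coreceptor Lrp5 or Lrp6. The receptor complex holds back the destruction complex, in which Axin proteins help to mark β-catenin for degradation, and the β-catenin that accumulates enters the nucleus and activates target genes together with Tcf7, Lef1 and related factors. Lrp4 is a related receptor that binds sclerostin, the product of the osteocyte gene Sost, and helps it to inhibit Lrp5 and Lrp6. Axin2 is itself a target gene and closes a feedback loop, Nkd1 and Nkd2 bind Dishevelled and dampen the signal, and Notum is a secreted enzyme that inactivates Wnt ligands by removing their lipid. In bone this pathway promotes bone formation, and inherited loss of Lrp5 lowers bone mass.

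The 3 receptor genes differ in base composition. The coding sequence held 59.0% G and C in Lrp5, 56.2% in Lrp4 and 49.3% in Lrp6, and at the third codon position the values were 72.9%, 65.3% and 51.0%. The middle 150 coding bases of each gene are given 5′ to 3′, with G and C in capitals (GENCODE M21 on GRCm38). They lie at chr2:91488601-91490474 on the plus strand for Lrp4, at chr19:3614230-3614379 on the minus strand for Lrp5, and at chr6:134479807-134480496 on the minus strand for Lrp6. The Lrp4 and Lrp6 stretches are each joined from 2 neighbouring exons. G and C made up 52.7% of the Lrp4 stretch, 53.3% of the Lrp5 stretch and 46.0% of the Lrp6 stretch. The stretches of Lrp4 and Lrp5 were thus nearly alike in G and C content, and each of the 3 lay below its whole coding sequence. In order of bases Lrp4 and Lrp5 were not alike, with 37 of 95 bases identical (38.9%) in their best ungapped alignment.
Lrp4: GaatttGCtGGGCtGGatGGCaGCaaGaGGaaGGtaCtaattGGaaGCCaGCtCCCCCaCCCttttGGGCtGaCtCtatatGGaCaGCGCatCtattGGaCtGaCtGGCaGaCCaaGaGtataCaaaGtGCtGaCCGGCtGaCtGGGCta
Lrp5: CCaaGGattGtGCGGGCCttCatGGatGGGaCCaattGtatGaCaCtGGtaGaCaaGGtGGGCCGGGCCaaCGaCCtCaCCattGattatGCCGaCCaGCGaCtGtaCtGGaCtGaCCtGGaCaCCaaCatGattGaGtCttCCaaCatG
Lrp6: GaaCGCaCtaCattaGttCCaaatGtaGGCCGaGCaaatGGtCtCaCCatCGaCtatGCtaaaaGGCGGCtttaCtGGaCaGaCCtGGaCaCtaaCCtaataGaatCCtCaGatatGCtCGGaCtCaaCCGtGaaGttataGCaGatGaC
The best ungapped alignment of the Lrp5 and Lrp6 stretches covered 117 bases, of which 79 were identical (67.5%). Among the 38 bases that differed, Lrp5 had G or C where Lrp6 had A or T at 20 and the reverse at 13. Over the longest transcript of each gene the G and C content was 58.6% for Lrp5, higher than in 93.4% of the features tested, 54.7% for Lrp4 and 46.0% for Lrp6. In the other genes it was 59.5% for Notum, 54.6% for Axin2, 53.3% for Nkd2, 53.1% for Nkd1, 52.3% for Tcf7, 51.4% for Lef1 and 50.3% for Ctnnb1.

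Each library was normalised by the authors to between 7067512 reads (Control 2) and 21363584 reads (HLU 6). The deposited values are RPKM, reads scaled by the length of the gene and by the reads of the library. Osteocyte markers were present in every mouse, and the RPKM of the 8 marker genes (among them Sost, Dmp1 and Phex) summed to between 185 and 610 in controls and between 272 and 621 in HLU mice. Transcripts of other cells were present as well. The sum of 6 granulocyte markers reached 17720 to 38030 RPKM in controls and 12607 to 44809 RPKM in HLU mice, and that of 10 B-lineage markers 45.3 to 148 RPKM and 34.1 to 107 RPKM. None of 10 marker scores differed between the groups (exact permutation tests, lowest adjusted p = 0.31). The erythroid score had the largest difference and was lower in HLU by 0.59 on the log2 scale (exact permutation p = 0.065). Its 8 markers summed to 2154 to 5095 RPKM in controls and to 1019 to 2771 RPKM in HLU mice. In a bulk sample, fewer cells of a type and less RNA per cell cannot be told apart.

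The first question was whether unloading altered transcript abundance of these genes. None of the 10 passed the threshold. Of the 16973 features that averaged 0.5 RPKM or more, 5.87% were called at an unadjusted p under 0.05 with a change of at least 1.2-fold (limma on log2 RPKM + 0.1), of which 188 were higher and 808 lower in HLU, and none passed with Benjamini-Hochberg adjustment at 0.1 (1049 had an unadjusted p under 0.05). After median-of-ratios rescaling the split was 376 higher and 401 lower. The median log2 fold change over all features was −0.10, against −0.02 after rescaling. Of the 10 genes, 6 reached a mean of 0.5 RPKM and 0 of these 6 were called. Axin2, Lef1, Nkd1 and Notum lay below that level and were tested in a limma fit without the filter, in which 0 of the 10 were called.

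Lrp4 (chr2:91457511-91513779, GRCm38, plus strand) ranged from 5.44 over a median of 7.96 to 11.2 RPKM in controls and from 5.20 over 7.91 to 11.3 RPKM in HLU mice, on 684 to 2778 reads per mouse. The groups overlapped over nearly their whole range, with 3 of 8 HLU mice above the control median. The means of the 8 controls and 8 HLU mice were 7.77 ± 2.04 and 7.70 ± 2.01 RPKM (SD). The log2 fold change was −0.01 ± 0.18 (SE), and its limma 95% interval ran from 0.759-fold to 1.30-fold (exact permutation p = 0.945).

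Lrp5 (chr19:3584828-3686564, minus strand) ranged from 2.08 over a median of 4.08 to 7.61 RPKM in controls and from 1.37 over 3.89 to 7.57 RPKM in HLU mice, on 78 to 763 reads. It was the most variable of the 3 receptors, spanning 5.55-fold over the 16 mice against 2.17-fold for Lrp4 and 1.79-fold for Lrp6. In controls the values lay apart in 4 mice between 2.08 and 2.77 RPKM and 4 mice between 5.39 and 7.61 RPKM, while HLU mice lay between these sets as well. The log2 fold change was −0.13 ± 0.37 (SE), with an interval from 0.534-fold to 1.56-fold (exact permutation p = 0.742), the widest interval of the 3 receptors.

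Lrp6 (chr6:134446476-134566965, minus strand) ranged from 5.50 over a median of 7.15 to 8.59 RPKM in controls and from 5.23 over 7.61 to 9.35 RPKM in HLU mice, on 454 to 1744 reads. HLU mice lay on both sides of the controls, 2 above the highest and 1 below the lowest. Its means over 8 mice each were 7.05 ± 1.08 and 7.59 ± 1.34 RPKM (SD), and the log2 fold change was 0.10 ± 0.13 (SE), with an interval from 0.886-fold to 1.29-fold (exact permutation p = 0.431). Among the receptors this was the most precise comparison.

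Ctnnb1 (chr9:120929216-120960507, plus strand), which encodes β-catenin, was by far the most abundant of the 10 transcripts. It ranged from 53.6 over a median of 67.6 to 85.5 RPKM in controls and from 50.7 over 66.1 to 87.97 RPKM in HLU mice, on 3698 to 13770 reads. The 16 values spanned 1.74-fold, the narrowest range of the 10 genes, and the groups overlapped. The log2 fold change was −0.02 ± 0.13 (SE), with an interval from 0.812-fold to 1.202-fold (exact permutation p = 0.888). For Lrp4 and Ctnnb1 the sign of these small differences turned under median-of-ratios rescaling (0.07 for each), quantile normalization and removal of the GC trend. An exon of Ulk4 overlaps Ctnnb1 on the other strand, and the counting is not stated to have used strand, so reads of these genes cannot be told apart there.

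Tcf7 (chr11:52252371-52283014, minus strand), a transcription factor that partners β-catenin and is also prominent in T cells, ranged from 1.34 over a median of 2.17 to 3.29 RPKM in controls and from 1.13 over 1.81 to 2.45 RPKM in HLU mice. The HLU values lay in the lower part of the control range, with 2 of 8 above the control median. Its log2 fold change was −0.25 ± 0.21 (SE), with an interval from 0.615-fold to 1.15-fold (exact permutation p = 0.259).

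Lef1 (chr3:131110471-131224356, plus strand), the related factor that is expressed in early lymphocytes as well as in osteoblasts, ranged from 0.321 over a median of 0.553 to 1.05 RPKM in controls and from 0.154 over 0.382 to 0.747 RPKM in HLU mice, on 24 to 157 reads. Here 3 HLU mice lay below the lowest control and none above the highest. The log2 fold change of −0.43 ± 0.29 (SE) had an interval from 0.486-fold to 1.14-fold (exact permutation p = 0.149). With the B-lineage marker score as a covariate the difference was 0.0015, and that score was itself lower in HLU by 0.44 on the log2 scale (exact permutation p = 0.126, adjusted p = 0.31 over 10 scores). The antisense gene Gm43352 overlaps an exon of Lef1.

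Axin2 (chr11:108920349-108950783, plus strand), widely used as a readout of β-catenin activity, was scarce in this bone. It ranged from 0.0823 over a median of 0.184 to 0.478 RPKM in controls and from 0.168 over 0.285 to 0.485 RPKM in HLU mice, which amounts to 5 to 89 reads per mouse. In HLU, 6 of 8 mice lay above the control median, yet 1 alone lay above the highest control. The log2 fold change was 0.35 ± 0.30 (SE), with an interval from 0.819-fold to 1.97-fold (exact permutation p = 0.260), and an exon of the antisense gene Gm11670 overlaps it. With erythroid and granulocyte marker scores as covariates in a fit without the filter, Axin2 passed the thresholds (log2 fold change 0.81, limma adjusted p = 0.0875 by Benjamini-Hochberg). The same covariates in the filtered fit, which Axin2 does not enter, gave 4281 called of 16973 features and 0 of the 6 genes. Over its other alternatives the log2 fold change lay between 0.085 and 0.55 and the limma adjusted p between 0.722 and 0.991.

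Nkd1 and Nkd2 encode sister inhibitors that act on Dishevelled. Nkd2 (chr13:73818534-73847631, minus strand) was the more abundant and ranged from 1.14 over a median of 1.84 to 2.51 RPKM in controls and from 1.39 over 1.76 to 2.73 RPKM in HLU mice. Nkd1 (chr8:88521354-88594884, plus strand) ranged from 0.0635 over 0.218 to 0.461 RPKM and from 0.103 over 0.270 to 0.679 RPKM, on 2 to 59 reads. For both, the HLU range covered most of the control range. The log2 fold changes were 0.05 ± 0.19 (SE) for Nkd2 and 0.21 ± 0.30 (SE) for Nkd1, with intervals from 0.789-fold to 1.36-fold and from 0.742-fold to 1.81-fold (exact permutation p = 0.785 and 0.488).

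Notum (chr11:120653788-120661175, minus strand) was close to the limit of what these libraries can show. It ranged from 0 over a median of 0.107 to 0.360 RPKM in controls and from 0.0172 over 0.118 to 0.386 RPKM in HLU mice. Each mouse gave 0 to 24 reads and 4 of 16 mice gave under 3. The log2 fold change of 0.03 ± 0.38 (SE) had an interval from 0.590-fold to 1.78-fold (exact permutation p = 0.929). Exons of the antisense genes Notumos and Myadml2os overlap it.

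**Figure D1:**
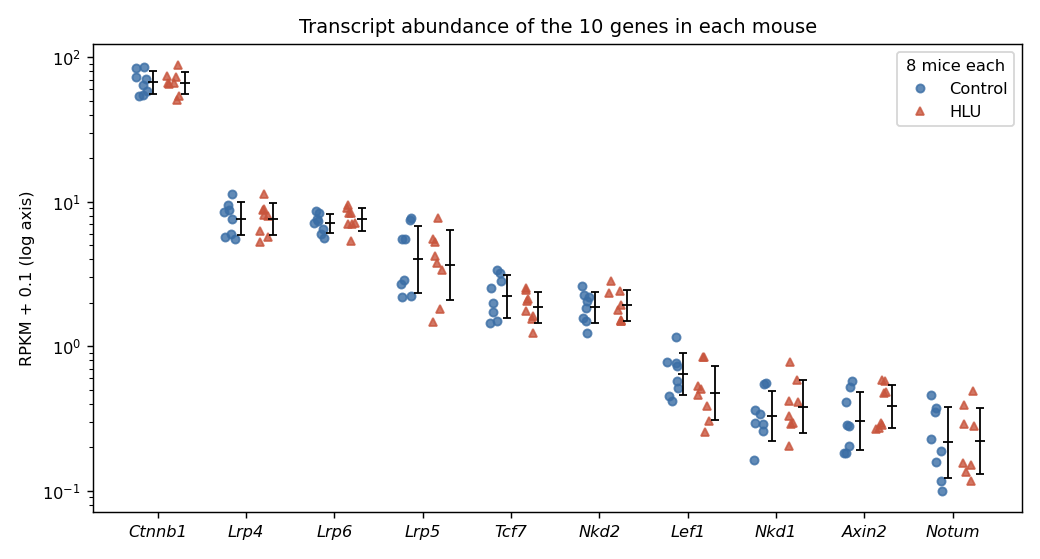
Transcript abundance (RPKM + 0.1, log axis) of the 10 genes, ordered by mean, in 8 control mice (circles) and 8 HLU mice (triangles), with black bars for the mean ± SD of the log2 values. The groups overlap for each gene, and Lrp5 spreads over 5.55-fold while Ctnnb1 spreads over 1.74-fold.

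**Figure D2:**
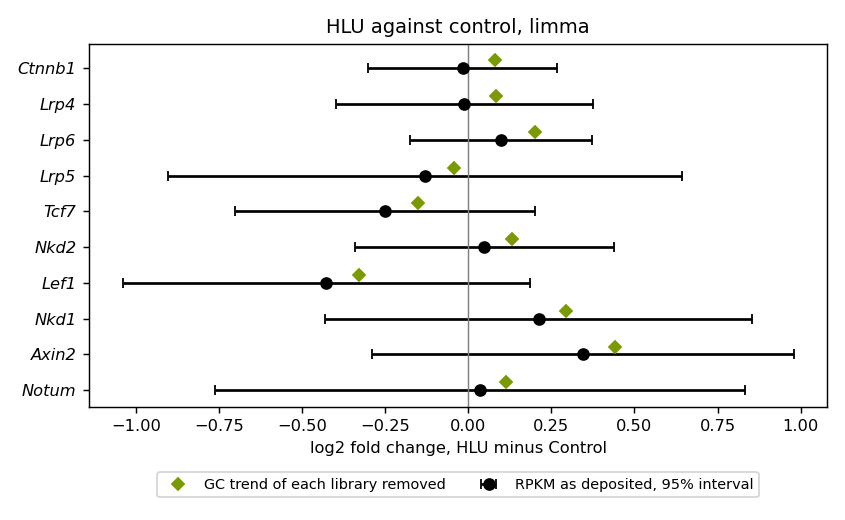
Log2 fold change (HLU minus Control) from limma for the 10 genes, with 95% intervals (black circles and bars) and the same estimate after the GC trend of each library was removed (diamonds). Each interval includes 0, and Ctnnb1 and Lrp6 have the narrowest.

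Per length of gene, Ctnnb1 had the highest abundance with a mean of 67.5 RPKM over the 16 mice, followed by Lrp4 (7.73 RPKM), Lrp6 (7.32 RPKM), Lrp5 (4.23 RPKM), Tcf7 (2.02 RPKM), Nkd2 (1.84 RPKM), Lef1 (0.494 RPKM), Nkd1 (0.283 RPKM), Axin2 (0.268 RPKM) and Notum (0.148 RPKM). Of the 9 pairs of neighbours in this order, 6 differed across the mice (exact sign-flip permutation tests, adjusted p over the 9 pairs between 0.000137 and 0.0223). Lrp4 and Lrp6, Tcf7 and Nkd2, and Nkd1 and Axin2 did not differ beyond their spread (adjusted p = 0.513, 0.504 and 0.589). Lrp6 exceeded Lrp5 in 15 of 16 mice. This order depends on the gene lengths by which the authors divided. The length implied for Lrp4 is 16369 bases, against 7926 in its longest GENCODE transcript, and that for Ctnnb1 is 9769 against 3623, while that for Lrp5 is 5172 against 5161. Per length of the longest transcript the order was Ctnnb1 (182 RPKM), Lrp4 (15.97 RPKM), Lrp6 (8.51 RPKM), Tcf7 (4.76 RPKM), Lrp5 (4.24 RPKM), Nkd2 (3.18 RPKM), Lef1 (1.27 RPKM), Axin2 (0.540 RPKM), Nkd1 (0.309 RPKM) and Notum (0.238 RPKM), so Lrp4 then stood above Lrp6 in 16 of 16 mice, and Tcf7 and Axin2 each moved up by a place. In that order Tcf7 and Lrp5, Lrp5 and Nkd2, and Nkd1 and Notum did not differ beyond their spread (exact sign-flip permutation tests, adjusted p = 0.17, 0.0712 and 0.0522).

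Ratios of RPKM within a library do not depend on how libraries are scaled against each other, and the ranges below are of such ratios. The tests used log2 ratios with 0.1 RPKM added to each gene, which depend somewhat on scaling for genes as scarce as Axin2 and Nkd1. None of 6 log2 ratios differed between HLU and control mice (exact permutation tests, adjusted p between 0.698 and 0.731). The balance of the coreceptors, Lrp5 over Lrp6, varied widely among mice all the same. It ran from 0.294 over a median of 0.562 to 1.05 in controls and from 0.147 over 0.542 to 0.922 in HLU mice, and only 1 mouse had more Lrp5 than Lrp6. Lrp4 over Lrp6 was much steadier, from 0.769 to 1.49 in controls and from 0.758 to 1.38 in HLU mice. Tcf7 exceeded Lef1 in every mouse, by 2.40-fold to 5.92-fold in controls and by 2.05-fold to 9.35-fold in HLU mice. The log2 ratio of Axin2 to Ctnnb1 was higher in HLU by 0.36 (exact permutation p = 0.248), within its spread of 0.61 log2 units between mice of a group.

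The second question was which of these transcripts rose and fell together from mouse to mouse. Values were taken as log2(RPKM + 0.1) less the mean of the mouse's group, so that a correlation describes differences among mice of the same group, over 16 mice. Among the 45 pairs of genes, 13 were correlated at an adjusted p under 0.05 (permutation tests within groups, Benjamini-Hochberg over 45 pairs), all 13 with a positive r in controls alone and in HLU mice alone. Spearman's rho passed for 11 of the 13. In the values as deposited, the pairs fell into 2 overlapping sets. One joined Lrp4, Ctnnb1 and Lrp6, and the other joined Lrp5 with Axin2, Nkd1, Nkd2 and Notum.

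Lrp4 and Ctnnb1 had the highest correlation of the 45 (r = 0.93, rho = 0.87, adjusted permutation p = 0.00045 for r). It was 0.94 in controls and 0.92 in HLU mice and remained at 0.91 without the 2 mice farthest from the median of Lrp4. Ctnnb1 followed Lrp6 as well (r = 0.74, rho = 0.82, adjusted permutation p = 0.0109), and Lrp4 followed Lrp6 (r = 0.64, rho = 0.67, adjusted permutation p = 0.0478). Lrp4 was also correlated with Nkd2 (r = 0.75, rho = 0.72, adjusted permutation p = 0.0109).

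Lrp5 followed the inhibitors of the pathway in the values as deposited. Its correlation was highest with Axin2 (r = 0.86, rho = 0.86, adjusted permutation p = 0.00135), at 0.93 in controls and 0.80 in HLU mice. It was also correlated with Notum (r = 0.81, rho = 0.79), Nkd2 (r = 0.81, rho = 0.81) and Nkd1 (r = 0.79, rho = 0.82), with adjusted permutation p between 0.0047 and 0.0048 for r. Without the 2 mice farthest from the median of Lrp5, r was 0.87 with Axin2 and 0.76 to 0.80 with the other 3. Axin2 in turn was correlated with Notum (r = 0.79) and Nkd1 (r = 0.73). Notum and Nkd1 rest on few reads, so their correlations carry counting error as well. With the erythroid and granulocyte marker scores removed, 4 of the 13 pairs still passed. They were Lrp4 with Ctnnb1 and with Nkd2, Lrp5 with Nkd2, and Lrp6 with Ctnnb1. Lrp5 then no longer passed with Axin2 (r = 0.65), Notum (0.63) or Nkd1 (0.57), and Axin2 passed with neither Notum nor Nkd1.

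Lrp5 and Lrp6, by contrast, showed no relation (r = 0.04, rho = 0.13, adjusted permutation p = 0.907). Lef1 was correlated with none of the other 9 genes past the threshold, its highest r being 0.46 with Tcf7 (rho = 0.44, adjusted permutation p = 0.185) and its lowest −0.44 with Notum. Tcf7 passed with no gene either. With the erythroid and granulocyte marker scores removed, Lef1 and Tcf7 passed with each other (r = 0.70).

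**Figure D3:**
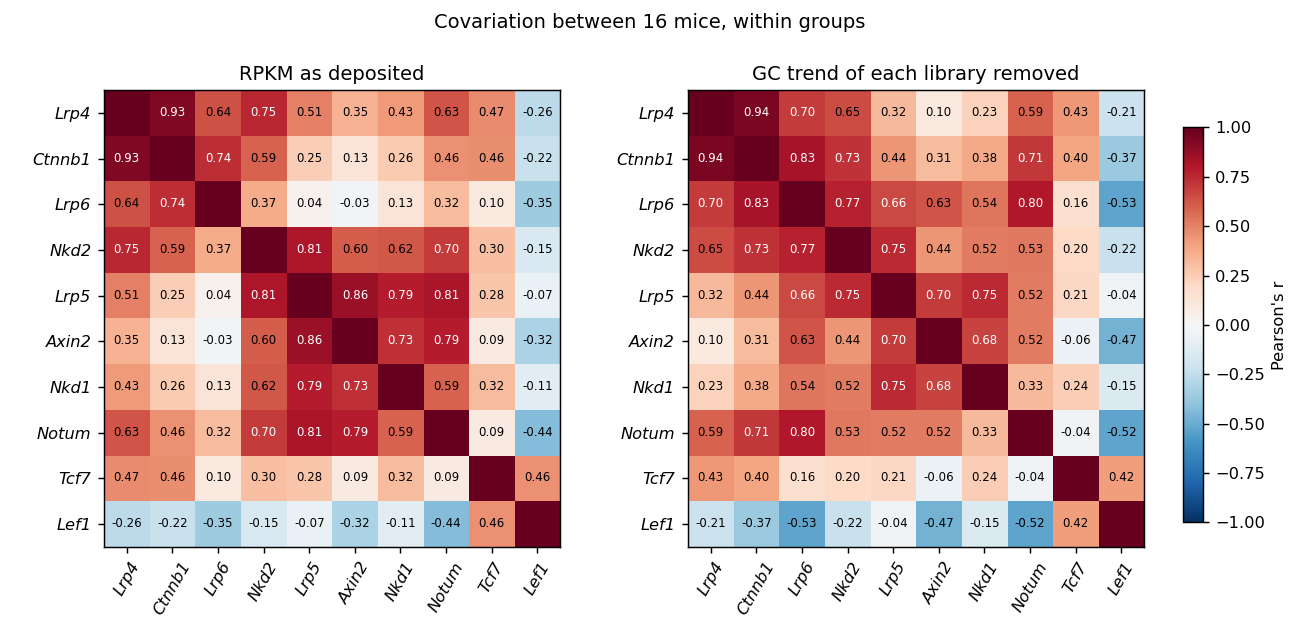
Pearson's r between each pair of the 10 genes over 16 mice, computed on log2 values centred within groups, for RPKM as deposited (left) and after the GC trend of each library was removed (right); color runs from −1 (blue) to 1 (red). Lrp5 and Lrp6 have an r of 0.04 on the left and 0.66 on the right, while Lrp4 and Ctnnb1 stay at 0.93 and 0.94.

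The libraries differed in how strongly they represented transcripts rich in G and C, and several of the 10 genes moved with this property. The GC slope of a library is the change of its log2 values, relative to the mean library, per 10 points of GC percent across genes. It ran from −0.61 in HLU 4 to 0.40 in Control 5 and did not differ between the groups (exact permutation p = 0.991). Lrp5 was correlated with the slope at r = 0.89 (rho = 0.90, adjusted permutation p = 0.0009 over 30 relations with technical measures) and Axin2 at r = 0.85 (rho = 0.89, adjusted permutation p = 0.0009). Notum followed it at r = 0.73 (rho = 0.74, adjusted permutation p = 0.0141), and Nkd1 and Nkd2 at 0.62 and 0.61 (adjusted permutation p = 0.055 for both). For the other 5 genes r lay between −0.30 and 0.28, among them Lrp4 (0.28), whose transcript has nearly the same G and C content as that of Axin2. Whether base composition sets these relations was not tested. The ratio of Lrp5 to Lrp6 followed the slope most closely of the 6 ratios (r = 0.95, rho = 0.90, permutation p = 1e-05, the smallest that 100000 permutations can give), and r was 0.92 without the 2 mice farthest from the median slope.

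**Figure D4:**
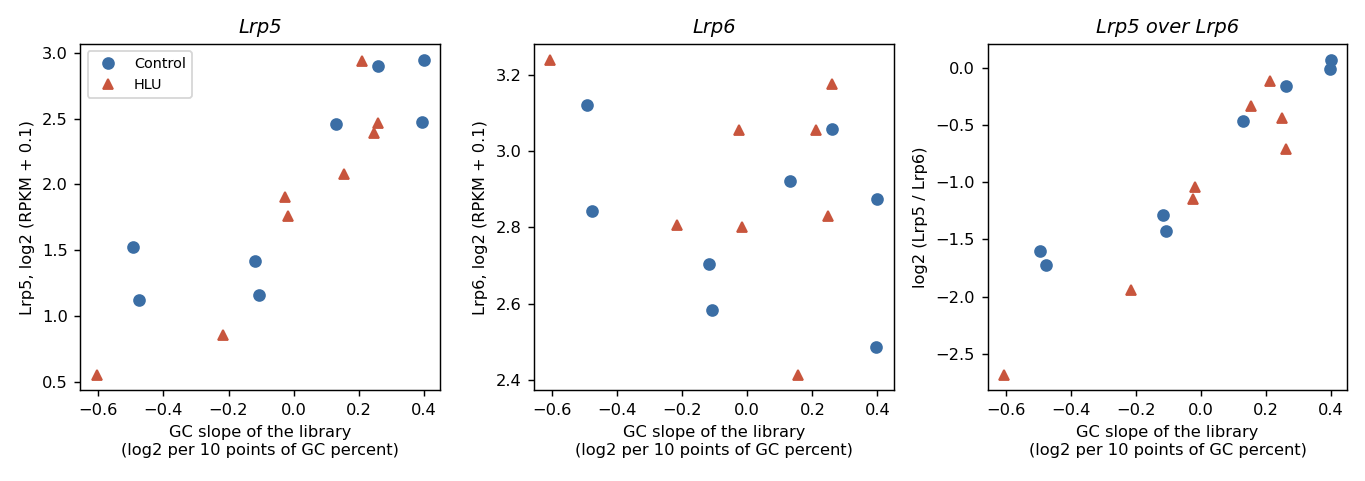
Lrp5 and Lrp6, as log2(RPKM + 0.1), and the log2 ratio of Lrp5 to Lrp6, each against the GC slope of the library (log2 units per 10 points of GC percent), in 8 control mice (circles) and 8 HLU mice (triangles). Lrp5 and the ratio climb with the slope in both groups (r = 0.89 and 0.95), while Lrp6 does not (r = −0.30).

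The comparisons were therefore repeated after each library's own trend of log2 value with GC percent had been subtracted, an alternative chosen after the data had been seen. The spread of the log2 ratio of Lrp5 to Lrp6 between mice of a group was 0.82 before and 0.33 after, and its range over the 16 mice was 6.75-fold before (with the pseudocount) and 2.22-fold after. Lrp5 and Lrp6 were then correlated with each other (r = 0.66, adjusted permutation p = 0.0333). The correlation of Lrp4 with Ctnnb1 was 0.94 and that of Lrp6 with Ctnnb1 0.83 (adjusted permutation p = 0.00045 and 0.00615). Lrp5 kept its correlations with Nkd1 and Nkd2 (r = 0.75 each) and with Axin2 (r = 0.70, adjusted permutation p = 0.0213), but that with Notum no longer passed (r = 0.52, adjusted permutation p = 0.108). In all, 14 of 45 pairs passed, 8 of them among the 13 found without this step. The 6 others each joined genes of the 2 sets described above (adjusted permutation p between 0.00615 and 0.0411). They were Lrp5 with Lrp6, Lrp6 with Axin2 (r = 0.63), Nkd2 (0.77) and Notum (0.80), and Ctnnb1 with Nkd2 (0.73) and Notum (0.71). With the GC trend removed, no gene differed between HLU and control mice, Axin2 having the lowest p (log2 fold change 0.44, exact permutation p = 0.0706).

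A further measure that moved with these genes was the share of a library's reads not assigned to any listed feature, 6.76% to 23.7% of the reads used to normalise it. It averaged 11.2% ± 4.28 in controls and 15.04% ± 5.29 in HLU mice (SD over 8 mice, exact permutation p = 0.133). Axin2 and Notum followed it at r = 0.79 each (rho = 0.71 and 0.72, adjusted permutation p = 0.0022 and 0.00345), and Lef1 went against it at r = −0.73 (rho = −0.80, adjusted permutation p = 0.0146). Its part in the other results was not tested beyond the correlations that follow its removal, where 8 of 45 pairs passed, among them Lrp4 with Ctnnb1 and Lrp5 with Axin2. Of these 8, 1 was not among the 13 pairs found as deposited, Lrp5 with Lef1 (r = 0.71).

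Because the bone held several cell types, each gene was set beside scores for 10 lists of marker genes, each score being the mean of the centred log2 values of a list. Of these 100 relations, 33 passed at an adjusted p under 0.05 (permutation tests within groups, Benjamini-Hochberg over 100), 29 of them positive. The lists and the genes share libraries, so the relations describe these samples and not the cells in which a gene is expressed.

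Lrp4 and Ctnnb1 followed the osteocyte markers, at r = 0.86 (rho = 0.89) and r = 0.85 (rho = 0.84), both with an adjusted permutation p of 0.00183. Lrp4 also followed the osteoblast score (r = 0.76) and the endothelial score (r = 0.79), the latter no longer past the threshold with the GC trend removed (r = 0.54, adjusted permutation p = 0.101). Lrp4 passed with the osteoclast (r = 0.69), adipocyte (0.69) and cartilage (0.70) scores too, but with the adipocyte score not after that removal (0.48). Ctnnb1 also passed with the osteoblast (r = 0.63), osteoclast (0.64) and endothelial (0.65) scores. Lrp6 followed the osteocyte markers as well (r = 0.62, adjusted permutation p = 0.0426). These relations were thus not particular to osteocyte markers. Nkd2 followed the osteoblast markers, which include Col1a1, Alpl and Bglap, at r = 0.85 (rho = 0.81, adjusted permutation p = 0.0019), and Lrp5 did so at r = 0.76 (rho = 0.76, adjusted permutation p = 0.012). With the osteoblast score removed from every gene, 3 of the 45 pairs of genes passed: Lrp4 with Ctnnb1, Lrp5 with Axin2 and Axin2 with Notum.

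Lrp5, Nkd2 and Notum had their highest correlation with the cartilage score (r = 0.90, 0.90 and 0.88), which rests on 3 genes, Acan, Col2a1 and Comp, whose summed level was 9.95 to 36.8 RPKM in controls and 7.22 to 33.7 RPKM in HLU mice. After removal of the GC trend these were 0.77, 0.84 and 0.73, all still past the threshold. Axin2 and Nkd1 also had their highest r with this score (0.70 and 0.67, adjusted permutation p = 0.0281 and 0.0285), and with the GC trend removed neither passed (0.39 and 0.49, adjusted permutation p = 0.19 and 0.107). Notum also followed the adipocyte markers (r = 0.83, rho = 0.78, adjusted permutation p = 0.00227). Lrp6 went against the blood cell scores, with r = −0.81 for the erythroid and −0.72 for the granulocyte markers (rho = −0.81 and −0.80, adjusted permutation p = 0.00183 and 0.0154). Lrp4 and Ctnnb1 also went against the granulocyte markers (r = −0.66 and −0.60, adjusted permutation p = 0.0264 and 0.0426). With the GC trend removed, Lrp4 and Ctnnb1 (r = −0.80 each), Notum (−0.71) and Nkd2 (−0.68) passed against the erythroid markers too (adjusted permutation p between 0.00589 and 0.0208). Axin2, Nkd1, Nkd2 and Notum then passed against the granulocyte markers (r between −0.73 and −0.62, adjusted permutation p between 0.0131 and 0.0387).

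Of the 10 genes, Lef1 alone passed with the B-lineage or T-lineage score in the values as deposited. It was correlated with the B-lineage score, built from Cd79a, Pax5, Rag1 and other genes of B cells and their precursors, at r = 0.95 (rho = 0.91, adjusted permutation p = 0.001), and the value was 0.97 in controls and 0.94 in HLU mice. It remained at 0.92 without the 2 mice farthest from the median. Lef1 also followed the T-lineage markers (r = 0.82, rho = 0.88, adjusted permutation p = 0.0019) and the granulocyte markers (r = 0.70, rho = 0.63, adjusted permutation p = 0.0264). Its r with the osteocyte and osteoblast scores did not pass. Tcf7 passed with none of the 10 scores.

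**Figure D5:**
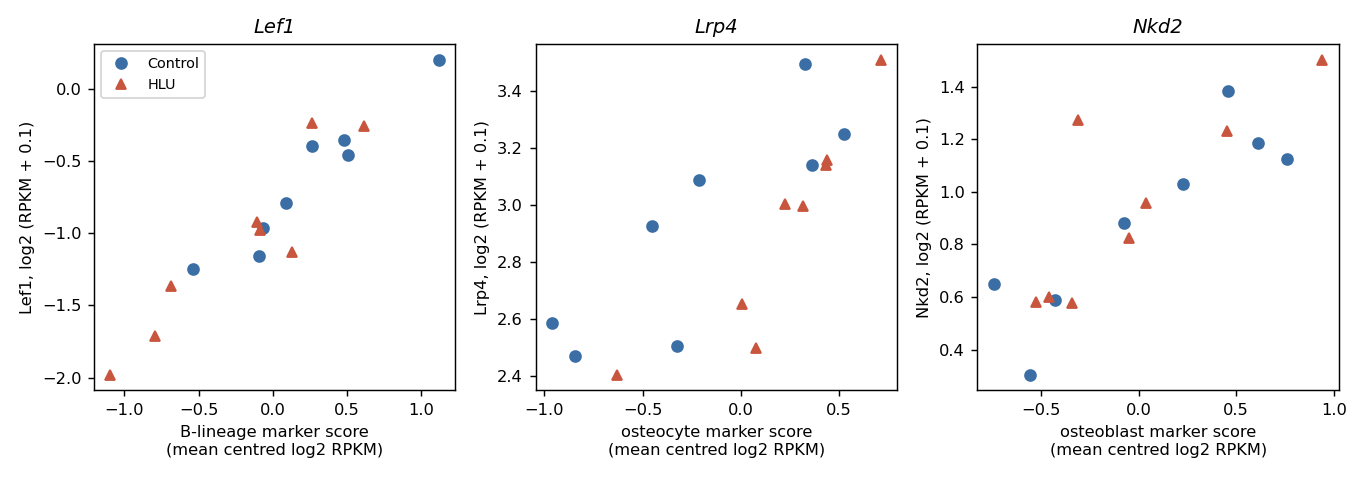
Lef1 against the B-lineage score, Lrp4 against the osteocyte score and Nkd2 against the osteoblast score, genes as log2(RPKM + 0.1) and scores as the mean of centred log2 RPKM values, in 8 control mice (circles) and 8 HLU mice (triangles). Each gene climbs with its score in both groups (r = 0.95, 0.86 and 0.85).

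The genes whose pattern over the 16 mice was most like each of the 10 were taken from 15744 features with a unique symbol, by Pearson's r of the group-centred log2 values and with no test. For Lrp4 they were Kirrel (r = 0.95), Olfml2a (0.95) and Sec24d (0.93), and for Ctnnb1 Gnai1 (0.96), Srpx (0.95) and Pdgfd (0.95). Lrp6 was most like Dsel (0.96), Zfhx4 (0.95) and Clock (0.94), which have a G and C content of 40.8% to 45.4%. Lrp5 was most like Abi3 (0.97), Slc39a13 (0.96) and Zdhhc8 (0.96), which have 59.7% to 59.9%, and with the GC trend removed these r values were 0.66, 0.57 and 0.89. Axin2 was most like Szrd1 (0.95), Lamb2 (0.95) and Ankrd9 (0.95), Nkd2 like Tsku (0.95), Maged1 (0.91) and C1qtnf6 (0.91), Nkd1 like Tubg2 (0.87), Prkar1b (0.86) and Pcgf2 (0.85), and Notum like Pomgnt1 (0.94), Gucy2g (0.93) and C77080 (0.93). Lef1 was most like Hlcs (0.95), Tmem229b (0.91) and Card6 (0.91). Tcf7 had the lowest values, with Clcf1 (0.84), H2-Aa (0.81) and Lbh (0.80).

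Genes that act beside the 10 were listed by role and read against the share called among all features, 1.11% higher and 4.76% lower in HLU. Counts after median-of-ratios rescaling are to be read against 376 features called higher and 401 lower of 16973 after that step. Of 8 other members of the LDL receptor family tested, 0 were called, and of 13 Lrp chaperones, partners and antagonists, 0 were called, against 2 called higher after median-of-ratios rescaling. In that list Sost, which encodes the sclerostin that Lrp4 binds and was named for that role after its values were seen, had 68.9 ± 39.8 RPKM in controls and 93.4 ± 27.98 RPKM in HLU mice (SD over 8 mice, exact permutation p = 0.108). Of 13 genes of the destruction complex and Dishevelled 0 were called, with a median log2 fold change of −0.01. Of 9 Wnt ligands and genes for their secretion above the filter of 0.5 RPKM, 0 were called. Their median log2 fold change was 0.18, against −0.10 over all features. Without that filter 20 genes of this list were tested and 1 was called higher. The median was then 0.096, against −0.065 over all features.

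Of 12 Frizzled receptors, related receptors and R-spondins, 3 were called higher and 0 lower, and 5 were called higher after median-of-ratios rescaling. They were Fzd4 (6.20 ± 1.05 RPKM in controls and 9.78 ± 4.14 in HLU mice, SD over 8 mice each, exact permutation p = 0.0603), Fzd7 (2.56 ± 0.361 and 3.46 ± 0.962, exact permutation p = 0.0317) and Rspo3, which encodes a secreted enhancer of Wnt signaling (2.60 ± 0.946 and 3.48 ± 0.708, exact permutation p = 0.0491). Among 15 nuclear partners of β-catenin, Pygo1 was called higher (log2 fold change 0.53 ± 0.24, SE) and the histone acetyltransferase gene Ep300 lower (−0.26 ± 0.12, SE). Ep300 was no longer called after rescaling. Among 12 further Wnt target genes, Fgf18 was called higher (0.84 ± 0.40, SE) and Myc lower (−0.49 ± 0.16, SE). Fgf18 was scarce, with 0.469 ± 0.387 RPKM in controls and 0.791 ± 0.314 RPKM in HLU mice (SD over 8 mice, exact permutation p = 0.0541). Its control mean lay below the filter of 0.5 RPKM, which it passed through its level in HLU mice. The lowest control, at 0.0427 RPKM, lay below the pseudocount of 0.1. Myc, a regulator of cell growth, had 4.46 ± 0.730 RPKM in controls and 3.20 ± 0.871 RPKM in HLU mice (SD over 8 mice, exact permutation p = 0.0073). None of these 7 genes passed with Benjamini-Hochberg adjustment over all features in limma (adjusted p = 0.744 for each).

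The promoters of the target genes were searched for the sequences that Tcf7 and Lef1 recognise, the core CTTTG followed by AA, AT, TT or TA, on both strands, in windows of 250 bases before each RefSeq start site (GRCm38.p6). Of 32851 windows of all genes, 14.8% held at least 1 of them, and 48.6% held the core alone or with these bases. Of 11 windows of 6 of the 10 genes (Lef1, Nkd1, Ctnnb1, Tcf7, Axin2 and Nkd2), 1 held a full motif and 4 held a core, all 4 being Lef1 windows. The window with the full motif, at chr3:131156044-131156293 on the plus strand, lies at a start site within the Lef1 gene. It is shown because it holds 3 cores, all on the opposite strand and so read here as CAAAG, in capitals.
Lef1: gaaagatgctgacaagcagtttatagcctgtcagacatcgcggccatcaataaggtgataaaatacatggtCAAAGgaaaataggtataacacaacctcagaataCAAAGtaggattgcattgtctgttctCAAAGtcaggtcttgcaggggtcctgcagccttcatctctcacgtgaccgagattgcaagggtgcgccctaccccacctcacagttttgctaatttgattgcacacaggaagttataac
Whether any factor binds there was not measured.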

How the data were processed

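RNA of femoral cortical bone from 8 Control and 8 HLU mice was sequenced by the authors from TruSeq v2 libraries, pooled 8 per lane on a HiSeq, and aligned with TopHat2. The submitters' processing notes also name mm9 and DESeq2. The authors deposited RPKM values for each mouse, in 16 tables with the same 36829 features. The counting tool, annotation and gene lengths are not given in the sources used here. RPKM takes account of gene length and of library size, not of base composition. Groups and numbers of the mice came from the sample labels. The genes and gene lists were chosen with earlier results of these data known. Whether the numbers mark shared cages or days is not stated, and p-values measure the spread between these mice.

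RPKM was tested as log2(RPKM + 0.1) with limma 3.58.1 (R 4.3.3), variances moderated along a trend, where the mean over the 16 mice reached 0.5 RPKM, with Benjamini-Hochberg adjustment over all 16973. The authors' DESeq2 test takes counts and was not repeated, although whole reads were recovered as described below. A feature was called at p under 0.05 without adjustment, or under 0.1 with it, given a change of at least 1.2-fold. Single values were tested two-sided by exact permutation over the 12870 splits into 8 and 8 (smallest p = 0.000155), levels of neighbouring genes by 65536 sign flips, and correlations by 100000 permutations within groups (Python 3.11.15, numpy 2.4.6, scipy 1.17.1, pandas 2.3.3, matplotlib 3.10.9). Named are the 10 genes, genes of the pathway lists called at the unadjusted p, and the 3 features most like each gene. Sost was added after its values were seen.

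Whole reads were recovered for 16973 of 16973 features by finding the number of reads and the gene length by which each value had been divided, within 0.02 reads, and were used for read numbers and for limma's voom as an alternative. Read numbers cover counting error only. GC percent came from the longest GENCODE M21 transcript and was found for 87.0% of the features. All 10 genes had one. Positions are from GENCODE M21 on GRCm38, a later build than the authors used. Of the marker lists, skeletal muscle and single genes of others were not analysed here. Scripts were tested on simulated data. In a simulation of 200 features changed 2-fold among 16973, limma recovered 123 with 19 false calls at an adjusted p under 0.1. Each feature was drawn independently there, so these numbers do not cover variation that features share between mice. The alternatives were another pseudocount, filter, scaling or variance model, a replicate block, marker scores as covariates, removal of the GC trend, and leaving out mice.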

Additional observations from a re-analysis of the deposited data

How the results depend on the processing

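None of the 6 genes above the filter was called under any alternative run. Axin2, tested without the filter, passed with erythroid and granulocyte scores as covariates, and the other 3 scarce genes passed under none. The number of features called (996) was 4281 with erythroid and granulocyte scores as covariates (2719 at the adjusted threshold, against 0), 582 with the B-lineage score, and 588 to 1748 when 1 mouse was left out (588 without HLU 7, 629 without HLU 1, 649 without Control 6, 659 without Control 7, 1748 without HLU 2, with 0 to 1 at the adjusted threshold). It was 1 at the adjusted threshold with no filter and with no variance trend.

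Small log2 fold changes turned sign. Lrp4 was at 0.074 after median-of-ratios rescaling, 0.11 after quantile normalization, 0.00050 with the erythroid and granulocyte covariates and 0.083 with the GC trend removed. Ctnnb1 was at 0.069, 0.13 and 0.081 under median-of-ratios, quantile and GC removal. With the erythroid and granulocyte covariates Lrp5 was at 0.43 and Lrp6 at −0.067, and with the B-lineage score Lef1 was at 0.0015 and Notum at −0.24. Without the 2 libraries with the fewest reads Nkd2 was at −0.027 and Notum at −0.17. The log2 ratio of Tcf7 to Lef1 was −0.027 with a pseudocount of 1. Leaving out 1 mouse gave −0.096 to 0.069 for Lrp4, −0.28 to 0.057 for Lrp5, −0.076 to 0.038 for Ctnnb1, −0.035 to 0.12 for Nkd2, −0.13 to 0.19 for Notum, −0.36 to 0.0040 for the ratio of Lrp5 to Lrp6 and −0.079 to 0.24 for Lrp4 to Lrp5. The cause of these shifts was not tested.

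The number of correlated pairs (13) was 5 with the erythroid and granulocyte scores removed, 3 with the osteoblast score removed and 8 with the share of unlisted reads removed, and 9 to 14 otherwise. Of the 13, the GC step kept 8. Relations with marker scores (33) numbered 50 with the GC trend removed and 22 to 39 otherwise.

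Replicate numbers did not pair the mice. Same-numbered mice of the groups had correlated deviations (r over 0.1) in 3 of 8 pairs, and 1 of 8 correlated best with its own number. With the replicate block 1039 features and 0 of the 6 genes were called. With the block and the GC trend removed the log2 fold changes of Lrp4 and Ctnnb1 were 0.083 and 0.081. Notum rests on 0 to 24 reads per mouse, Nkd1 on 2 to 59 and Axin2 on 5 to 89.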

Other observations

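The correlations of Lef1 within each group were singled out after they had been seen, and no difference between the groups was tested. In controls r of Lef1 was 0.26 with Lrp4, −0.23 with Lrp5, 0.35 with Lrp6 and 0.41 with Ctnnb1, and in HLU mice it was −0.68, 0.05, −0.81 and −0.74 (8 mice each). Its r with the granulocyte score was 0.16 in controls and 0.92 in HLU mice, while that with the B-lineage score was 0.97 and 0.94.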
